A study of Mus musculus with 10 samples.

Results

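Cell cycle and self-renewal genes were described in microglia, the macrophages that live in brain tissue, from mice that lack Bhlhe40 and Bhlhe41 (double knockout, DKO) and from wild-type controls (WT). The group holds 32 genes, listed by their symbols but with earlier results of these data known, of 53697 genes in the files. By role, 10 act in DNA replication and nucleotide supply, 12 in mitosis and 10 in the control of G1, the phase before DNA is copied. Of the 32 genes, 28 had enough reads to be among the 13916 genes tested, and Mki67, Ube2c, Bub1 and Ccne1 did not.

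A cell enters the cycle when D-type cyclins and their kinases inactivate the retinoblastoma protein, which frees E2F factors to switch on cyclin E and the replication genes. The MCM proteins open the DNA and the clamp PCNA holds the polymerase on it, and cyclin B with its kinase CDK1 then drives mitosis. Inhibitors such as p21 and p27, made from Cdkn1a and Cdkn1b, hold these kinases back, and adult microglia divide rarely and renew themselves within the brain. Bhlhe40 and Bhlhe41 encode related repressors that bind the E-box CACGTG, and in other resident macrophages they are known for their part in proliferation and self-renewal.

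RNA was sequenced from 5 WT and 5 DKO libraries of untreated female mice. DKO mice were Bhlhe40-/-Bhlhe41-/-, a loss in the whole body and not in microglia alone, and the controls were wildtype, either C57BL/6J or Rosa26Stop-YFP, which the study's results also call littermates. Ages are given as at least 2 and 6 months without being tied to libraries, and the labels do not say whether a library is a single mouse, so the p-values below measure the spread between libraries. Cells were sorted from perfused, enzyme-digested brain without olfactory bulb and cerebellum, as live CD45.2+ CD11b+ cells without Ly6C, Ly6G, MHCII or CD38. Libraries are called WT 1 to WT 5 and DKO 1 to DKO 5 after the numbers in their labels.

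Total counts were 22483284 to 26109349 per library, and a count of 3 was worth 0.108 to 0.134 CPM (counts scaled to a fixed library size, with TMM factors). WT 1 and WT 5 stood apart from the other libraries on the first principal component, at -70.1 and -76.8 against -30.7 to 13.5 in the other WT and 21.1 to 54.4 in the DKO libraries. Without both, Cdkn1a (log2 fold change 0.98, adjusted p = 0.0174) and Ccnd2 (3.54, 0.0352) kept their calls and E2f1 (0.81, 0.134) lost it. All 10 microglial markers were read, from 227 CPM (Sall1 in WT) upward, and 1 of them, P2ry12, was lower in DKO microglia (log2 fold change -0.50, adjusted p = 0.0301). This call was lost without 7 of the 10 libraries taken singly and without WT 1 and WT 5 together (adjusted p = 0.11). At an unadjusted p under 0.05, 2 markers were lower and 0 higher. Of 14 alternative settings other than single libraries left out, 13 called at least 1 marker lower and none called one higher. DESeq2 and limma voom each called 2 lower. Bhlhe40 was read at 0.601 ± 0.385 CPM in the WT and 0.177 ± 0.136 CPM in the DKO libraries, and Bhlhe41 at 35.9 ± 6.67 and 50.9 ± 8.46 CPM (SD, n = 5 each), so counts over the whole gene do not by themselves check the genotype labels. The transcript length behind the Bhlhe41 counts was 5878 to 6133 bases in WT and 1851 to 2719 bases in DKO libraries, without overlap.

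Promoter sequences are shown first for the member that changed most reliably and for members that share a short motif. RefSeq promoters (GRCm38.p6, 250 bases before to 50 after a start) were matched for 24 of the 32 genes, and Mcm4, Ccnd1, Ccna2, Myc, Ccne2, Rb1, Aurkb and Ccnd2 had no entry. Both strands were searched for 4 motifs: CACGTG (the E-box), TTTGAA (a core of the cell cycle homology region of mitotic promoters), TTTNNCGC (an E2F-like motif) and CCAAT. Matches of the first 3 may overlap each other and are in capitals below. Each run gives the 250 bases upstream of a start, 5′ to 3′ on the strand of the gene.

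Cdkn1a has 2 starts in the table, at chr17:29090729-29090978 and chr17:29093519-29093768, both on the plus strand and both without a match of the 3 motifs in the window. They are shown because Cdkn1a was higher in every DKO than in every WT library.
Cdkn1a, upstream start: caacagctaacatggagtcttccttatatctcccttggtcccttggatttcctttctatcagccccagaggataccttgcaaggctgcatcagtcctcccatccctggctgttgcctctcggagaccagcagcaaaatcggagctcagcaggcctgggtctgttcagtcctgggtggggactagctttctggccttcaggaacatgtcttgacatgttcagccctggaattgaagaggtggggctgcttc
Cdkn1a, downstream start: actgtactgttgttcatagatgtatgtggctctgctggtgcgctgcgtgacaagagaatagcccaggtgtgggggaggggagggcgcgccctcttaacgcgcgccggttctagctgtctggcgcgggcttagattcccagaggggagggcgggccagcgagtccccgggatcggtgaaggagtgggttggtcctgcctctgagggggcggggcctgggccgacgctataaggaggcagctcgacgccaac

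The next set is shown for TTTGAA in mitotic genes, with Ccnb2 at chr9:70421555-70421804, Cdc20 at chr4:118437344-118437593 and Cdk1 at chr10:69352913-69353162, all on the minus strand. Cdk1 holds TTTNNCGC as well. Ccnb2 has a second TTTGAA at bases 5 to 10 counted from its start, beyond the stretch shown.
Ccnb2: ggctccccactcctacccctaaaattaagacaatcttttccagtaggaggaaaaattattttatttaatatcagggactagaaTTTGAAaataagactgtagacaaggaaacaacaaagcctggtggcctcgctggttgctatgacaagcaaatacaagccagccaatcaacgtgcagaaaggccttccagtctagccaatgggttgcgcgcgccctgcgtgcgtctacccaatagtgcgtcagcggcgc
Cdc20: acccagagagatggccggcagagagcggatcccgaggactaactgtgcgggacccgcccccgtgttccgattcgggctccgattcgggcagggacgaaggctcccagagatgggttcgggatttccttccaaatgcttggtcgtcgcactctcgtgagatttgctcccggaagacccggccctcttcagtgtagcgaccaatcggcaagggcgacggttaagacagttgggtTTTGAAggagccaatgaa
Cdk1: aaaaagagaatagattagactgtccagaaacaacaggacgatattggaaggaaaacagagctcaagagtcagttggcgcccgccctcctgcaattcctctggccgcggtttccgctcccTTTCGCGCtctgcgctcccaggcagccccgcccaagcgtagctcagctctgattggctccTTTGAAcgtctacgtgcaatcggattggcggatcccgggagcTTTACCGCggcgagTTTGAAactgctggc

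The last set is shown for TTTNNCGC in replication genes, with Mcm5 at chr8:75109259-75109508 on the plus and Mcm6 at chr1:128359706-128359955 on the minus strand. Tyms at chr5:30073626-30073875 on the minus strand is shown as the member with the E-box. Its TTTNNCGC lies at bases 42 to 49 counted from its start, beyond the stretch shown.
Mcm5: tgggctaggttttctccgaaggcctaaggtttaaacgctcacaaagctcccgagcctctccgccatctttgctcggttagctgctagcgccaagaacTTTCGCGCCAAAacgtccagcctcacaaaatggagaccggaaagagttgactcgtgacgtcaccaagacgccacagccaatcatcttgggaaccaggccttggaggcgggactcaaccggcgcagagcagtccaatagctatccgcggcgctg
Mcm6: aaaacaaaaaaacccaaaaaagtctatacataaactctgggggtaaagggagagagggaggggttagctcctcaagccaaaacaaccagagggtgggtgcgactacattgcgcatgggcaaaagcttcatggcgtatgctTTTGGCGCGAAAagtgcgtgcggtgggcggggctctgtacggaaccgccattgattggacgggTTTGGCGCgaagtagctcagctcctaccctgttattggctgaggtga
Tyms: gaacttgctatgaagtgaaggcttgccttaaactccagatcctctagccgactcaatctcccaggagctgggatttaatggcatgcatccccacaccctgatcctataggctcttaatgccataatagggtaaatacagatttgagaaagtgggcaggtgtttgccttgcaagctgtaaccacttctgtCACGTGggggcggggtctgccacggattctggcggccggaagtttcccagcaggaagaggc

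TTTGAA was found in 7 of the 10 mitosis members with a promoter (Ccnb2, Cdc20, Cdk1, Cenpf, Mki67, Top2a and Ube2c), in 1 of 9 replication members (Mcm2) and in 0 of 5 G1 members, against 17.9% of all 32851 promoters. TTTNNCGC was found in 5 of 9 replication members (Mcm3, Mcm5, Mcm6, Mcm7 and Tyms), in 1 mitosis member (Cdk1) and in 0 G1 members, against 5.17% of all promoters. CCAAT was found in 18 of the 24 members and in 37.4% of all promoters. The E-box CACGTG was found in 1 of the 24 members, Tyms, 61 to 56 bases before its start, and in 7.15% of all promoters. A member was counted when any of its promoters held the motif, while the percentages count each promoter singly. A match is a description of these letters, and no match says only that they are not in this window.

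Of the 28 members tested, 3 were higher in DKO microglia and 0 were lower (edgeR's quasi-likelihood test, Benjamini-Hochberg adjusted p under 0.05). These were Cdkn1a, E2f1 and Ccnd2, which all belong to the control of G1. Of all genes tested, 6.19% were called in either direction, 4.34% as higher and 1.85% as lower, and the 3 calls were made among 28 members. At an unadjusted p under 0.05, 8 members were higher, where 13.3% of all genes were, and 0 were lower. DESeq2, limma voom and robust edgeR also called 0 members lower. In bulk RNA, a change in the share of cells in cycle and a change in cell cycle RNA per cell cannot be told apart.

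Most members lay on the upper side of 0 without passing the test. The log2 fold change was above 0 in 22 of 28 members and in 48.7% of all genes, and its median was 0.20 over the members and -0.0095 over all genes. By role, the median was 0.11 for the 10 replication members (7 above 0), 0.52 for the 9 mitosis members tested (8 above 0) and 0.33 for the 9 G1 members tested (7 above 0). In Cdkn1a and E2f1 alone every DKO library lay above every WT library, while 7.62% of all genes had no overlap between genotypes.

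The precision differed by role, since replication genes were mostly read above 10 CPM and most mitosis genes at under 1 CPM. The 95% interval of the fold change stayed within 1.5-fold of no change for 6 of 10 replication members, 3 of 9 G1 members and 0 of 9 mitosis members. It stayed within 2-fold for 8, 4 and 2 of them. For Ccna2 and Cdc20 of the mitosis, Rrm2 and Tk1 of the replication and Ccne2 of the G1 members, the interval lay above no change although the adjusted p missed the threshold.

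**Figure D1:**
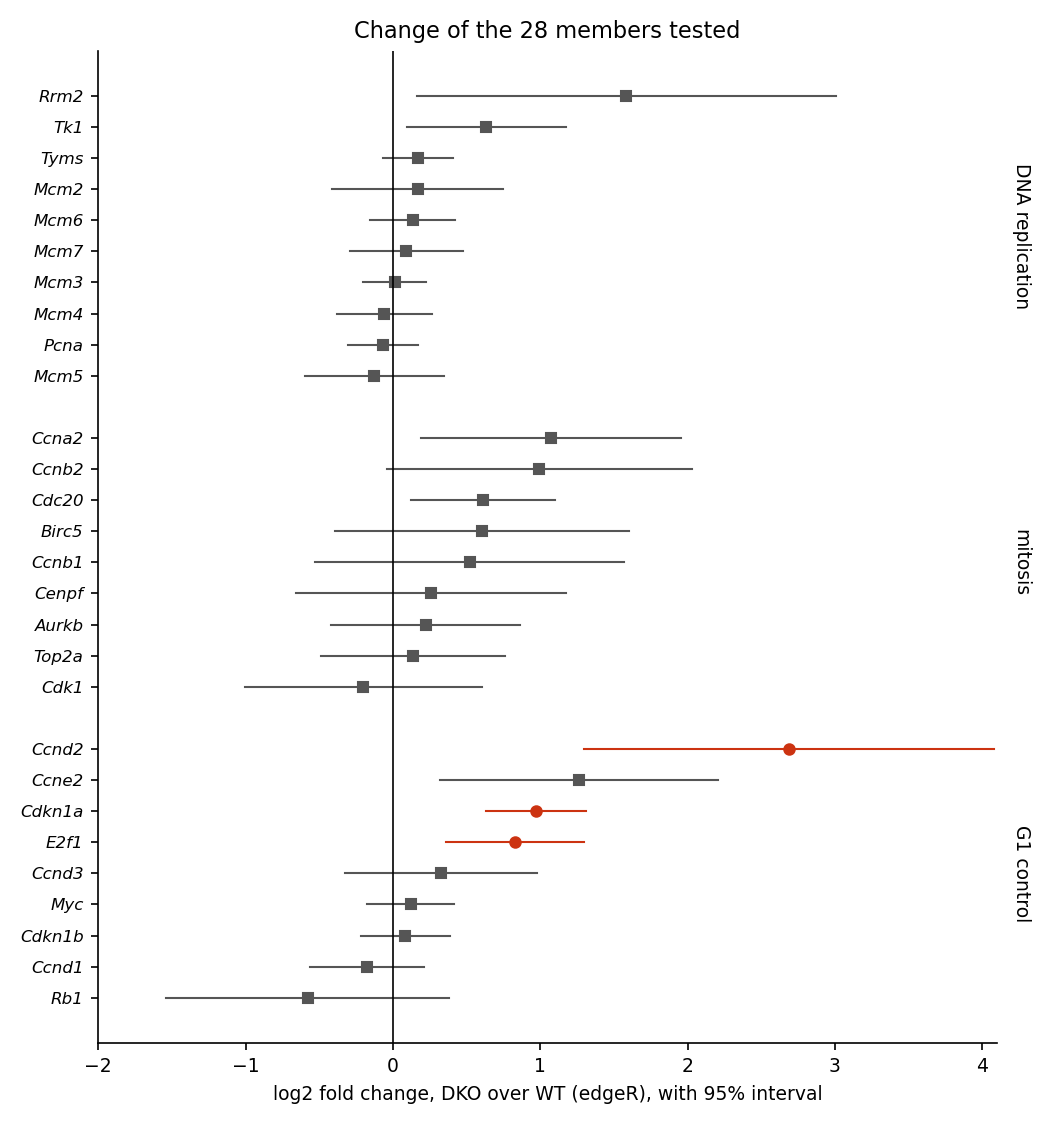
Log2 fold change of the 28 members tested, DKO over WT, with its 95% interval, grouped by role and ordered within each role. Red circles mark the 3 members with an adjusted p under 0.05 (Ccnd2, Cdkn1a and E2f1), and grey squares the other 25. The intervals of the MCM genes other than Mcm2 and of Pcna are narrow and span 0, and those of the mitosis genes are wide.

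Levels per length were set by the replication and G1 genes, and most mitosis genes were low, with Cdk1 (8.52 ± 4.43 TPM in WT libraries) as the exception. In TPM (transcripts scaled to a fixed sum per library, recomputed without the short noncoding gene Gm23935), Pcna, the replication clamp, was highest at 59.9 ± 10.3 in WT and 53.8 ± 2.64 in DKO libraries (SD, n = 5 each, as for all TPM and CPM below). Mcm3 followed at 43.4 ± 6.04 and 41.0 ± 2.81 TPM, and Ccnd3, Myc and Ccnd1 at 32.4 ± 14.6, 32.2 ± 5.42 and 31.0 ± 7.02 TPM in WT libraries, a spread within which these 3 did not differ. Cdkn1a stood at 21.6 ± 3.63 TPM in WT, level with Tyms at 20.2 ± 3.94, and at 40.2 ± 5.65 TPM in DKO libraries, level with Mcm3.

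Below them, Rb1 stood at 18.3 ± 14.7 TPM in WT libraries, and Mcm7, Mcm6, Mcm5, Cdk1, Mcm4, Cdkn1b and Mcm2 averaged 5.36 to 10.7 TPM, with library ranges that overlapped between neighbours in that order. Tk1, E2f1 and Cdc20 lay at 2.43 ± 0.674, 1.39 ± 0.312 and 1.30 ± 0.242 TPM in WT libraries. Every other mitosis member, with Rrm2, Ccnd2, Ccne1 and Ccne2, averaged under 1 TPM in WT libraries, down to Mki67 at 0.0342 ± 0.0738 TPM. TPM rests on the transcript length that the authors' tool assigned, which in Cenpf ran from 904 to 11130 bases and in Mki67 from 575 to 10061 bases between libraries, so the order among these low genes is loose.

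**Figure D2:**
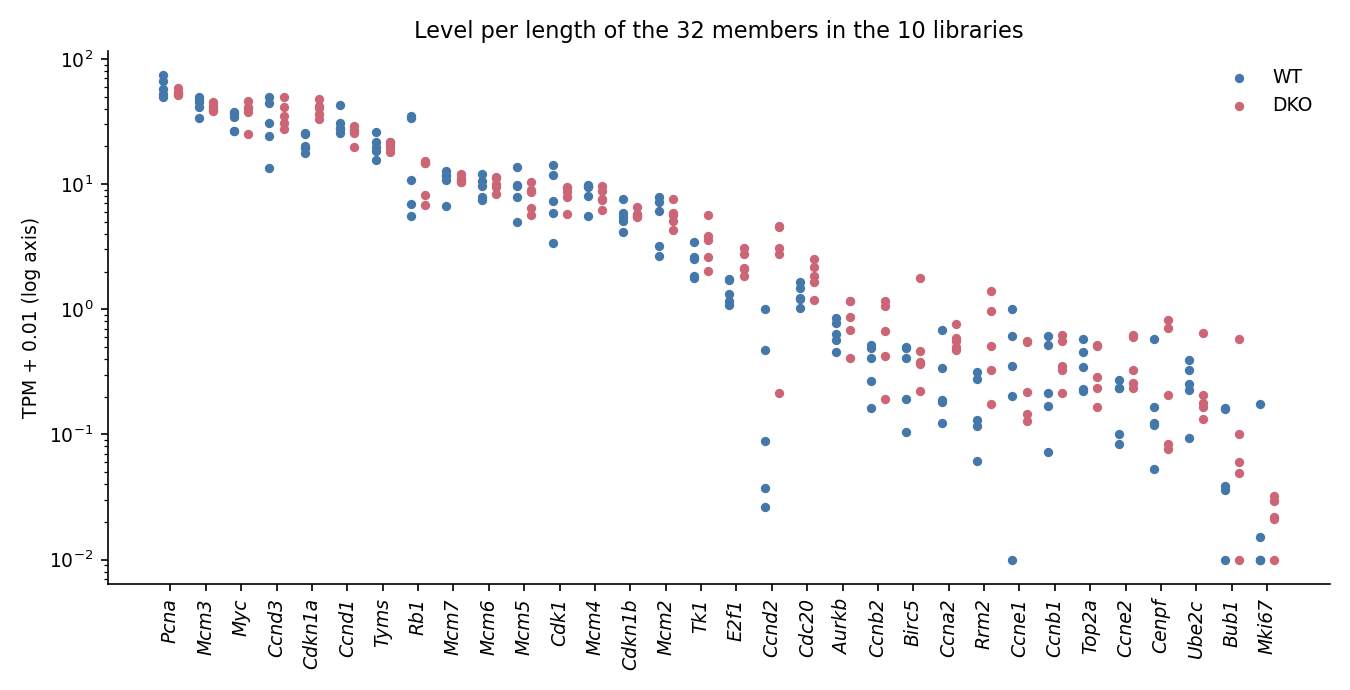
TPM of the 32 members in each of the 10 libraries, with 0.01 added and on a log axis, ordered by the mean over libraries. Blue points are WT and red points DKO libraries. Pcna, Mcm3, Myc, Ccnd3 and Cdkn1a lead, and Bub1 and Mki67 lie at the right edge near 0.

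Among replication genes, those of the MCM helicase and of the polymerase clamp PCNA did not change beyond the spread between libraries. Mcm3, the most abundant MCM subunit here, was read at 87.1, 93.8, 98.3, 71.2 and 83.6 CPM in WT 1 to WT 5 and at 94.1, 82.1, 83.3, 88.7 and 89.4 CPM in DKO 1 to DKO 5. The groups overlapped fully, and the fold change was 1.01 with a 95% interval of 0.870 to 1.17 (adjusted p = 0.958). Pcna ran from 49.0 to 66.1 CPM in the WT and from 52.4 to 61.8 CPM in the DKO libraries, a fold change of 0.954 with an interval of 0.81 to 1.12.

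The other MCM subunits gave the same picture with wider limits. Mcm6, with log2 fold change 0.13, had an interval of 0.898- to 1.34-fold, Mcm4 (-0.06) one of 0.77- to 1.20-fold and Mcm7 (0.09) one of 0.817- to 1.39-fold. Mcm5 (-0.12) spanned 0.661- to 1.27-fold. Mcm2 (0.17) was at 13.8, 12.1, 15.2, 5.76 and 6.73 CPM in the WT and 11.6, 16.0, 11.3, 9.82 and 11.5 CPM in the DKO libraries, so that WT 4 and WT 5 lay below all others. Mcm7 shares part of its locus with Cops6 and Ap4m1 on the other strand, and the kit does not mark strand.

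The 3 nucleotide supply genes lay on the upper side of 0 and none passed. Tyms, thymidylate synthase, was at 13.1 ± 1.24 CPM in the WT and 14.7 ± 1.06 CPM in the DKO libraries (log2 fold change 0.17, adjusted p = 0.365, interval 0.955- to 1.33-fold). Tk1, the thymidine kinase of S phase, was at 1.26, 1.66, 1.26, 2.14 and 0.978 CPM in the WT and 2.82, 2.36, 2.19, 2.32 and 1.62 CPM in the DKO libraries. Only DKO 5 lay within the WT range (log2 fold change 0.63 ± 0.25 standard error, SE, adjusted p = 0.15), and Tk1 overlaps Afmid, whose log2 fold change was 0.25 (adjusted p = 0.439).

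Rrm2, the S phase subunit of ribonucleotide reductase, had the largest fitted difference of the replication members and the fewest reads. It was at 0.468, 0.170, 0.0790, 0.452 and 0.188 CPM in the WT and 0.513, 1.61, 1.54, 0.285 and 0.213 CPM in the DKO libraries. DKO 2 and DKO 3 were high, and DKO 4 and DKO 5 lay among the WT libraries (log2 fold change 1.59 ± 0.65 SE, adjusted p = 0.17). All WT libraries together held 35 reads of it and all DKO libraries 96.

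Summed over the 10 replication members, WT libraries held 245 ± 21.8 CPM and DKO libraries 248 ± 3.21 CPM. The WT sums were 267, 253, 257, 211 and 237 CPM and the DKO sums 249, 250.5, 251, 244 and 245 CPM, so the genotypes overlapped and the WT libraries were the more spread. The 12 mitosis members summed to 10.1, 8.66, 8.54, 13.2 and 13.1 CPM in the WT and to 13.4, 13, 12.9, 12.4 and 10.8 CPM in the DKO libraries. In WT 4 and WT 5 Cdk1 alone made up over 7 CPM of that sum.

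Without Cdk1, the mitosis sum was 5.95, 5.48, 6.68, 5.02 and 5.12 CPM in the WT and 10.1, 8.83, 8.97, 6.32 and 6.12 CPM in the DKO libraries. DKO 1 to DKO 3 lay above every WT library, and DKO 4 and DKO 5 lay within the WT range. The sum without Cdk1 was formed after the values were seen, and no test was made of any sum. All 12 mitosis members together held 204 to 347 reads per library.

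**Figure D3:**
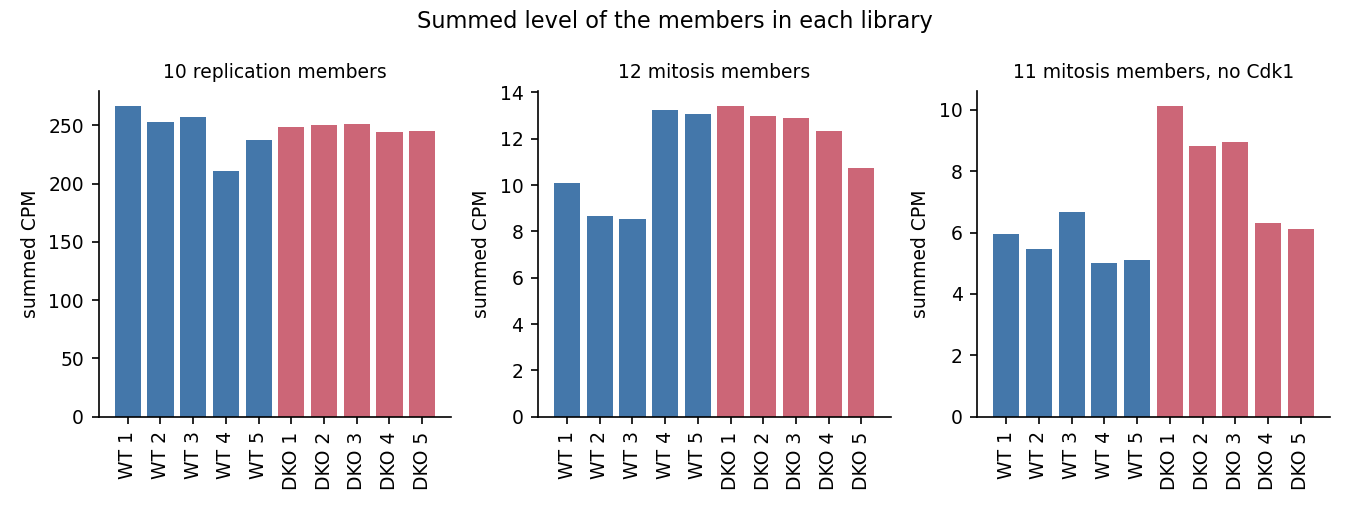
Summed CPM of the 10 replication members, the 12 mitosis members and the 11 mitosis members without Cdk1, with 1 bar per library (blue WT, red DKO) and axes that start at 0. The replication sums run from 211 to 267 CPM. Without Cdk1, DKO 1 to DKO 3 rise above the other 7 libraries.

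Mitosis genes were read at under 2.5 CPM in every library, with the exception of Cdk1, and 0 of 9 tested were called, with 2 of them (Ccna2 and Cdc20) higher at an unadjusted p under 0.05. Cdc20, which activates the ubiquitin ligase that ends metaphase, was at 0.901, 1.32, 1.34, 1.23 and 1.17 CPM in the WT and 1.75, 2.14, 2.27, 1.71 and 1.23 CPM in the DKO libraries. DKO 5 alone fell in the WT range (log2 fold change 0.61 ± 0.22 SE, adjusted p = 0.126). Cdc20 overlaps Elovl1, which was read at 267 ± 15.5 CPM in the WT and 275 ± 34.3 CPM in the DKO libraries.

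Ccna2, cyclin A2 of S phase and G2, was at 0.396, 0.382, 0.514, 0.452 and 0.263 CPM in the WT and 0.854, 1.38, 1.12, 0.652 and 0.255 CPM in the DKO libraries. DKO 1 to DKO 4 lay above all WT libraries and DKO 5 below them (log2 fold change 1.07 ± 0.40 SE, adjusted p = 0.137). Without DKO 5 the adjusted p was 0.0499. Ccna2 overlaps Exosc9, which was not called (log2 fold change -0.26).

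Ccnb2, one of the mitotic B cyclins, was at 0.468, 0.509, 0.395, 0.165 and 0.263 CPM in the WT and 1.20, 1.12, 0.644, 0.204 and 0.468 CPM in the DKO libraries. DKO 1 to DKO 3 were high and the other pair fell among the WT libraries (log2 fold change 0.99 ± 0.47 SE, adjusted p = 0.232). A pseudogene, Ccnb2-ps, took 558 reads over the 10 libraries (log2 fold change 0.10), more than Ccnb2 itself, so how reads were divided between them is uncertain.

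Ccnb1, the major mitotic cyclin, had a log2 fold change of 0.52 (interval 0.693- to 2.97-fold). Birc5, which encodes survivin, had one of 0.61 (0.763- to 3.04-fold), and Cenpf, of the outer kinetochore, one of 0.26 (0.633- to 2.26-fold). Aurkb, the kinase of the chromosomal passenger complex, stood at 0.22 (0.748- to 1.82-fold) and Top2a, which untangles replicated chromosomes, at 0.14 (0.713- to 1.70-fold). For none of them does the interval leave out no change.

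The 3 mitosis genes under the count filter were close to or under the level that 3 counts mark. Mki67, the proliferation antigen, had 2 reads in all WT libraries together and 12 in all DKO libraries, at 0 to 1 read per WT and 0 to 4 reads per DKO library. The two-sided exact permutation test of 5 against 5 libraries gave p = 0.0476, unadjusted, the smallest of the 4 members tested in this way, where the design allows no p under 0.00794. Ube2c, a ubiquitin-conjugating enzyme of mitosis, had 16 and 18 reads (exact p = 0.81), and Bub1, a spindle checkpoint kinase, 27 and 18 reads (exact p = 0.603).

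Cdkn1a was the member whose change was largest beside its spread. It encodes p21, an inhibitor of cyclin-dependent kinases and a target of p53, and lies on chromosome 17 from 29090976 to 29100727. It was read at 13.3, 11, 9.56, 15.3 and 11.2 CPM in the WT and 27.0, 20.4, 19.4, 26.1 and 25.5 CPM in the DKO libraries. Every DKO library lay above every WT library, and the fold change was 1.96 with an interval of 1.55 to 2.48 (log2 fold change 0.97 ± 0.15 SE, adjusted p = 0.00369).

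Cdkn1a kept its call in all 24 alternative settings, with log2 fold changes of 0.87 to 1.07 and adjusted p of 0.0174 or less. In the libraries numbered 1 to 3 it averaged 11.3 CPM in WT and 22.3 CPM in DKO, and in those numbered 4 to 5 13.3 and 25.8 CPM. A gene model on the other strand, AC167363.2, was read at under 1 CPM in the mean of both genotypes.

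E2f1 encodes the E2F factor that activates replication genes and lies on chromosome 2 from 154559407 to 154569892. It was read at 2.63, 1.83, 2.06, 3.00 and 1.84 CPM in the WT and 3.03, 3.48, 4.80, 3.87 and 5.02 CPM in the DKO libraries. The groups did not overlap, by a narrow margin between WT 4 and DKO 1 (log2 fold change 0.83 ± 0.21 SE, adjusted p = 0.0429). The call was lost in 17 of 24 alternative settings, with adjusted p of up to 0.134, among them every setting that left out a single library other than WT 4 and the one that left out WT 1 and WT 5. The direction was upward in all of them.

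Ccnd2, cyclin D2, which binds CDK4 and CDK6 in G1, had the largest fitted change on the fewest reads of the 3. It was at 0.685, 0.127, 0.277, 0.0823 and 0.301 CPM in the WT and 2.86, 3.57, 2.15, 0.53 and 0.723 CPM in the DKO libraries. DKO 1 to DKO 3 were high, while DKO 4 lay below WT 1 and DKO 5 just above it (log2 fold change 2.69 ± 0.63 SE, adjusted p = 0.0306). WT libraries held 39 reads in all and DKO libraries 227.

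Ccnd2 fell short of the threshold when WT 2, WT 4, WT 5 or any of DKO 1 to DKO 3 was left out, at adjusted p of 0.052 to 0.0795, and with limma voom, limma on log2(TPM + 0.1) or effective length as an offset. Its log2 fold change ran from 1.49 with limma on log2(TPM + 1) to 4.17 with the length offset (adjusted p = 0.0516), and was 3.54 without WT 1 and WT 5, where the call was kept. The transcript length behind the counts was 1154 to 1285 bases in DKO 1 to DKO 3, 3354 bases in DKO 4, 537 bases in DKO 5 and 654 to 6330 bases in WT libraries, where the longest annotated transcript has 6330 bases. Ccnd2 lies on chromosome 6 from 127125162 to 127152193, between the targeted genes, 18.5 Mb from Bhlhe40 and 18.7 Mb from Bhlhe41. Of 230 tested genes between the targeted genes, 18 were higher and 6 lower, or 10.4%, and the part of this position in the result was not tested.

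**Figure D4:**
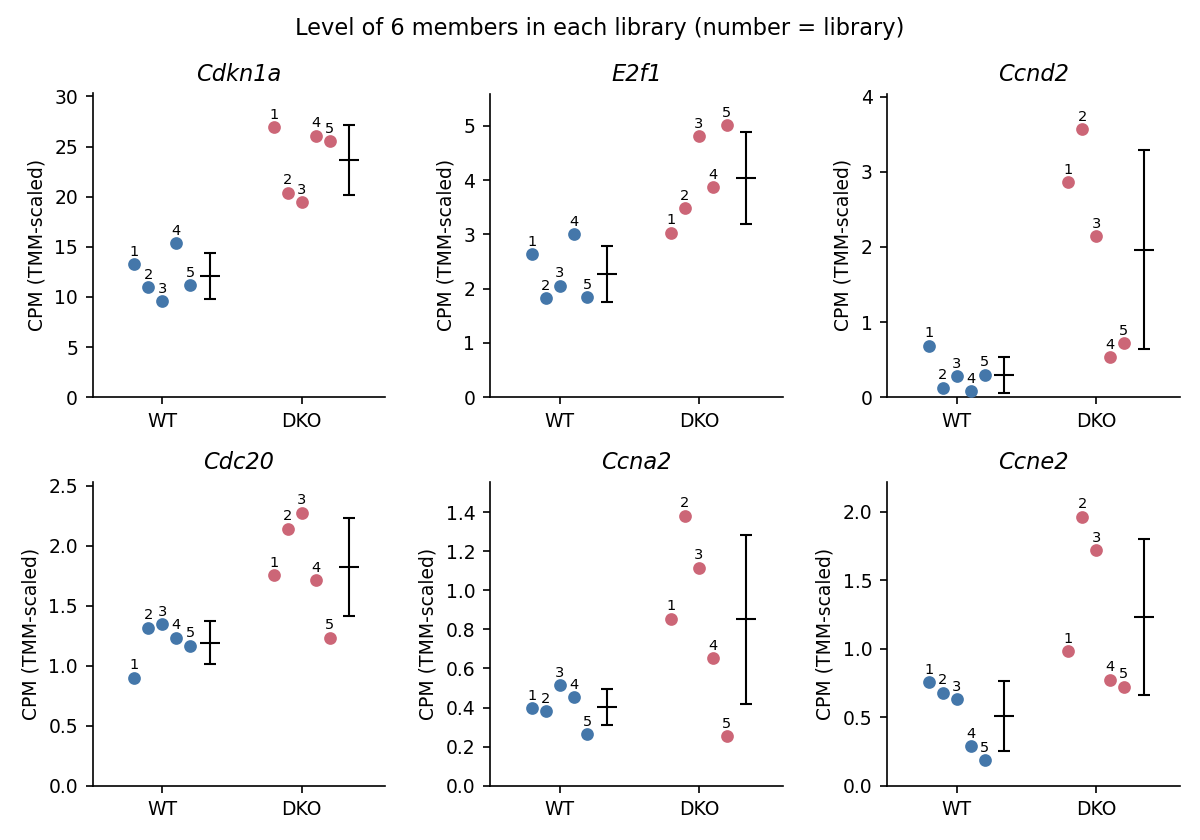
CPM of Cdkn1a, E2f1, Ccnd2, Cdc20, Ccna2 and Ccne2 in each library, with linear axes that start at 0. Points are libraries labelled by number (blue WT, red DKO), and black bars are the mean and SD of 5 libraries. Cdkn1a and E2f1 part the genotypes, while in Ccnd2, Ccna2 and Ccne2 the high DKO values come from DKO 1 to DKO 3.

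The E cyclins, which bring cells into S phase, were scarce. Ccne2 was at 0.757, 0.679, 0.632, 0.288 and 0.188 CPM in the WT and 0.983, 1.96, 1.72, 0.774 and 0.723 CPM in the DKO libraries. Only DKO 5 lay within the WT range (log2 fold change 1.26 ± 0.43 SE, adjusted p = 0.105), and in each set of numbers the DKO mean was the higher. With a term for the numbers 1 to 3 against 4 to 5 the adjusted p was 0.0133. Ccne2 overlaps Ints8, which was at 12.9 ± 10.5 CPM in the WT and 25.8 ± 1.73 CPM in the DKO libraries. Ccne1 had 12 reads in WT and 28 in DKO libraries (exact permutation p = 0.23).

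Myc and Cdkn1b did not pass. Myc, a transcription factor that drives growth and division, was at 27.0 ± 3.55 CPM in the WT and 29.3 ± 4.24 CPM in the DKO libraries, a fold change of 1.09 with an interval of 0.887 to 1.33. Cdkn1b, which encodes p27, was at 11.2 ± 1.94 and 11.9 ± 0.707 CPM, a fold change of 1.06 with an interval of 0.86 to 1.31. Like Ccnd2 it lies on chromosome 6 between the targeted genes, from 134920401 to 134925513.

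Several of the remaining members differed more among WT libraries than between genotypes. Rb1, the retinoblastoma protein gene, was at 7.64, 9.64, 10.6, 40.1 and 34.2 CPM in the WT and 10.9, 16.1, 14.5, 12.1 and 14.9 CPM in the DKO libraries. WT 4 and WT 5 were high and the other WT libraries lay below every DKO library (log2 fold change -0.58 ± 0.44 SE, adjusted p = 0.455). In the libraries numbered 1 to 3 the means were 9.28 CPM in WT and 13.8 CPM in DKO, and in those numbered 4 to 5 37.2 and 13.5 CPM.

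Rb1 overlaps Rcbtb2, which rose from 296 ± 22.5 to 497 ± 24.8 CPM (log2 fold change 0.75, adjusted p = 2.26e-04), and Lpar6, at 252 ± 79.2 and 218 ± 38.7 CPM, both on the other strand, and how reads were divided among them was not tested. These 2 neighbours are outside the rule for named genes and were looked up after the values of Rb1 were seen.

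Cdk1, the mitotic kinase, showed the same pair of high libraries at 4.14, 3.18, 1.86, 8.23 and 7.94 CPM in WT, against 3.29, 4.15, 3.95, 6.03 and 4.63 CPM in DKO libraries (log2 fold change -0.20 ± 0.37 SE, adjusted p = 0.778). Its DKO mean was the higher in the libraries numbered 1 to 3 (3.80 against 3.06 CPM) and the lower in those numbered 4 to 5 (5.33 against 8.08 CPM). The labels do not say what these numbers stand for.

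Of the D cyclins, Ccnd1 was at 51.7, 56.3, 60.3, 98.7 and 53 CPM in the WT and 62.5, 61.2, 58.4, 46.6 and 54.3 CPM in the DKO libraries, with WT 4 far above the rest (log2 fold change -0.18, adjusted p = 0.579). Ccnd3 was at 20.5, 43.4, 51.1, 31.7 and 15 CPM in the WT and 40.8, 54.4, 36.5, 39.0 and 31.8 CPM in the DKO libraries. Its lowest values were those of WT 1 and WT 5, the libraries that stand apart (log2 fold change 0.33 ± 0.30 SE, adjusted p = 0.542), and without them the log2 fold change was -0.06. Bysl, which overlaps Ccnd3, was higher in DKO microglia (log2 fold change 0.34, adjusted p = 0.0393), and it too was looked up after the fact.

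**Figure D5:**
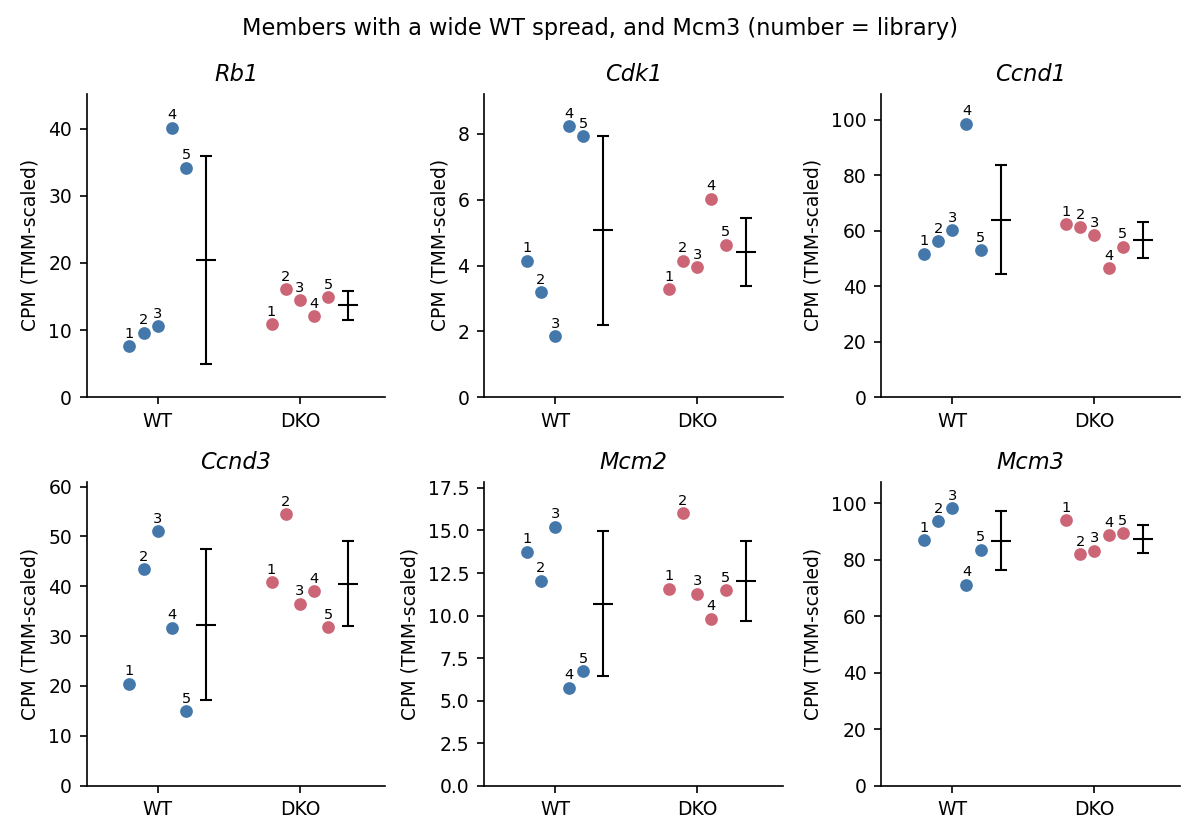
CPM of Rb1, Cdk1, Ccnd1, Ccnd3, Mcm2 and Mcm3 in each library, with linear axes that start at 0, points labelled by library number (blue WT, red DKO) and black bars for the mean and SD of 5 libraries. WT 4 and WT 5 are high in Rb1 and Cdk1 and low in Mcm2, WT 4 is high in Ccnd1, and WT 1 and WT 5 are low in Ccnd3.

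Across roles, the DKO mean exceeded the WT mean in both sets of numbers for 3 of 10 replication, 7 of 12 mitosis and 6 of 10 G1 members. DKO 1 held the highest value of 4 mitosis members and 3 G1 members, DKO 2 that of 4 replication and 3 G1 members, and WT 4 the lowest value of 5 replication members.

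Other genes of the pathways, 45 of the replication machinery and 47 of mitosis, were read beside the members, where 4.34% of all genes were called higher and 1.85% lower. Of 41 replication genes tested 1 was higher and 0 lower (5 and 3 at an unadjusted p under 0.05), with a median log2 fold change of -0.09, while 3 of 14 settings with other scaling, tests or terms called 1 lower. It was Prim2, the large subunit of primase, at 19.0, 16.1, 17.7, 13.8 and 13.2 CPM in the WT and 26.3, 31.6, 24.7, 21.3 and 24.8 CPM in the DKO libraries. The groups did not overlap (log2 fold change 0.69 ± 0.14 SE, adjusted p = 0.0162).

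Of 33 mitotic genes tested 2 were higher and 0 lower (4 and 2 unadjusted), with a median of 0.06. In 12 of the 14 other settings at least 1 was called lower, and DESeq2 called 4 higher and 2 lower. Ncaph, a condensin subunit chosen here after its values were seen, was at 39.3 ± 5.50 CPM in the WT and 26.8 ± 5.26 CPM in the DKO libraries, without overlap (log2 fold change -0.55 ± 0.15 SE, adjusted p = 0.0504). Kif23, a kinesin of the central spindle and cytokinesis, was at 0.144, 0.382, 0.474, 0.452 and 0.451 CPM in the WT and 2.95, 1.43, 1.72, 1.92 and 1.28 CPM in the DKO libraries (log2 fold change 2.28 ± 0.35 SE, adjusted p = 0.00285). Cdc25b, a phosphatase that activates CDK1, was at 1.44, 1.78, 1.94, 1.32 and 1.20 CPM in the WT and 4.44, 4.37, 5.02, 4.04 and 2.76 CPM in the DKO libraries (log2 fold change 1.42 ± 0.21 SE, adjusted p = 0.00265). Neither overlapped between genotypes, and both kept their call whichever library was left out, while Kif23 lost it in both limma fits on TPM (adjusted p = 0.0533 and 0.0611).

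Of 12 further G1 cyclins and kinases tested, 2 were higher and 0 lower (2 and 2 unadjusted). Cdk6, a partner of the D cyclins, was at 22.3 to 27.3 CPM in the WT and 41.0 to 46.1 CPM in the DKO libraries, without overlap (log2 fold change 0.77 ± 0.09 SE, adjusted p = 5.16e-04). Its call was lost with effective length as an offset (adjusted p = 0.0814) and with both limma fits on TPM. Ccni, cyclin I, was at 29.8, 33.4, 114, 37.5 and 27.4 CPM in the WT and 220, 282, 100.05, 81.8 and 242 CPM in the DKO libraries, with WT 3 in the DKO range (log2 fold change 1.93, adjusted p = 0.0346). It lost its call without any library other than WT 3, DKO 3 or DKO 4, and without WT 1 and WT 5 together (adjusted p = 0.147). Robust edgeR (adjusted p = 0.0595) and the block by replicate number (0.0929) did not call it either.

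Of the 6 other CDK inhibitors tested, Cdkn1c, which encodes p57, was higher and 0 were lower (2 and 0 unadjusted). It was at 0.396, 0.382, 1.62, 0.535 and 0.226 CPM in the WT and 3.59, 7.81, 1.16, 1.14 and 3.23 CPM in the DKO libraries, again with WT 3 in the DKO range (log2 fold change 2.41, adjusted p = 0.049). It lost its call without the same 7 libraries as Ccni, and without WT 1 and WT 5 together (adjusted p = 0.193). The call was also lost with limma voom (adjusted p = 0.0587), robust edgeR (0.0597) and limma on log2(TPM + 1) (0.0527). Effective length as an offset (0.0937) and the block by replicate number (0.13) lost it as well.

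Partners and regulators of E2F and the pocket proteins gave 0 calls among 15 genes tested (6 higher and 2 lower unadjusted, median 0.04). DESeq2 called 2 of them higher and limma voom 1, and without WT 3 the count was 5. The 2 most abundant were Rbl2, a relative of Rb1, and Lin52, a subunit of the complex that silences cell cycle genes at rest, with log2 fold changes of -0.04 and -0.24. The ubiquitin ligases of the cycle gave 0 calls among 21 genes (0 higher and 2 lower unadjusted, median -0.06), and DESeq2, limma voom and robust edgeR called 0. In 5 of the 14 settings (library size, upper-quartile factors, both limma fits on TPM and the term for numbers) 1 was lower, and without WT 3, 1 was higher. Their most abundant genes were Anapc2 (0.03) and Skp1a (-0.06).

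Of 16 p53 targets other than Cdkn1a, 2 were higher and 1 lower (2 and 3 unadjusted), with a median of -0.15. The 14 other settings called 1 to 3 of them higher, and 12 of these settings called 1 lower. Pmaip1, which encodes the pro-apoptotic protein NOXA, was at 6.80 to 12.3 CPM in the WT and 17.4 to 20.8 CPM in the DKO libraries (log2 fold change 1.10 ± 0.16 SE, adjusted p = 0.00248). Btg2, which restrains proliferation, was at 429.5 to 678 CPM in the WT and 334 to 402 CPM in the DKO libraries (log2 fold change -0.54 ± 0.12 SE, adjusted p = 0.0272). Neither overlapped between genotypes, and the call for Btg2 needed each of WT 1, WT 2, WT 5, DKO 1 and DKO 2. Without WT 1 and WT 5 together Btg2 stood at -0.34 (adjusted p = 0.0841), and with the block by replicate number at -0.52 (0.0749). Ei24 was higher (log2 fold change 1.66, adjusted p = 0.0393) with WT 3, at 37.0 CPM, in the DKO range of 28.6 to 70.3 CPM. It lost its call without the same 7 libraries as Ccni and without WT 1 and WT 5 together (adjusted p = 0.163). Robust edgeR (adjusted p = 0.0631) and the block by replicate number (0.0921) did not call Ei24 either.

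The Myc network gave 0 calls among 10 genes (1 higher and 0 lower unadjusted, median 0.07), also with DESeq2, limma voom and robust edgeR, and Mlxipl and Mlx led it with 0.43 and -0.23. The 16 early response genes tested gave 0 calls (3 higher and 1 lower unadjusted, median 0.17), while limma voom called 2 higher. Jun was at 48.6 and 46.2 CPM in WT 1 and WT 5 and at 368 to 552 CPM in the other 8 libraries. Junb was at 190.2 to 262 CPM in the WT and 174 to 204 CPM in the DKO libraries.

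Of genes linked to self-renewal of macrophages, Id2, Tgfbr2 and Cebpa were called. Id2, an inhibitor of helix-loop-helix factors, was at 109, 64.7, 55.6, 61.0 and 83.3 CPM in the WT and 32.5, 38.5, 34.5, 32.7 and 40.0 CPM in the DKO libraries, without overlap (log2 fold change -1.07 ± 0.18 SE, adjusted p = 0.00474). Tgfbr2, the type II receptor of TGF-beta, was at 652 to 1136 CPM in the WT and 1243 to 1489 CPM in the DKO libraries (log2 fold change 0.67 ± 0.14 SE, adjusted p = 0.0157). Cebpa, a myeloid transcription factor, was higher by 0.71 on the log2 scale (adjusted p = 0.0362). It lost its call without any single library other than WT 3 or DKO 3, and without WT 1 and WT 5 together (adjusted p = 0.14). The call was also lost by library size alone (adjusted p = 0.053) and with both limma fits on TPM (0.0681 and 0.0638). Effective length as an offset (0.0555) and the block by replicate number (0.0828) lost it as well.

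Markers of other cell types, some of which divide, were also read. Of 10 neutrophil precursor markers none passed the count filter and no library held as many as 10 reads of one, with S100a8, S100a9, Camp, Ltf, Elane and Mmp8 at 0. Of 8 markers of oligodendrocyte precursors and neural progenitors none passed either, with Olig2 at 0. Of the defining B cell genes Pax5 was at 0, while Ighm and Cd79b were read at 490 ± 105 and 65.8 ± 20.2 CPM in the WT and 622 ± 119 and 86.6 ± 30.0 CPM in the DKO libraries (0 of 3 tested called).

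The T and NK cell genes Cd3g, Trac and Nkg7 were at 0. Of 2 tested, 1, Il7r, was lower in DKO microglia, by 1.44 on the log2 scale. The log2 fold change of the other was above 0, and it was not called. Of monocyte markers 0 of 2 tested were called (0 higher and 1 lower unadjusted), and of endothelial markers 0 of 2. Of border-associated macrophage markers Cd163 and Lyve1 were at 0 and 1 of 3 tested, Pf4, was higher (0.149 ± 0.138 and 3.91 ± 1.55 CPM). Hemoglobin and other red cell markers summed to 0.0424 to 13.1 CPM in the WT and 0.901 to 16.2 CPM in the DKO libraries (0 of 4 called, 1 higher unadjusted). For the B cell, monocyte, endothelial and red cell lists, DESeq2, limma voom and robust edgeR also gave 0 calls, while without WT 5 the red cell list had 1 higher, and with the term for numbers 1 to 3 against 4 to 5 Cd79b was higher (log2 fold change 0.37, adjusted p = 0.036). The part of Pf4, Il7r and the red cell genes in the values of the cell cycle genes was not tested.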

How the data were processed

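Microglia were sorted from brains of WT and DKO mice, and their RNA was sequenced as 5 WT and 5 DKO libraries after a TruSeq v2 preparation, which does not mark strand. The submitters' processing notes name FastQC 0.11.8, cutadapt 2.6, STAR 2.5.3a and the mm10 build. Which tool quantified genes is not stated in the sources used, and RNA integrity was not assessed for the mouse samples. The deposited files hold, per gene, the authors' estimated counts and TPM values with the length and effective length behind them, and no comparison of the authors.

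Estimated counts were rounded and tested with edgeR 4.0.16 (R 4.3.3) by its quasi-likelihood test, after its filter with a minimum count of 10 and with TMM factors, and p-values were Benjamini-Hochberg adjusted over 13916 genes at a threshold of 0.05. The standard error is the log2 fold change divided by the square root of F. Genes under the filter were compared by the two-sided exact permutation test over 5 against 5 libraries. TPM was recomputed without Gm23935 for levels between genes. The depth, 22483284 to 26109349 counts, sets a floor of 3 counts at 0.108 to 0.134 CPM, which covers counting error only. Libraries were grouped by genotype from the labels, and no pair of libraries differed by as little as sampling noise (chi-square per gene of at least 12.4).

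The members and the other gene lists were chosen with earlier results of these data known. Named were all members, the targeted genes and, of each other list, up to 4 called genes with the smallest p or, with 0 called, the 2 with the highest mean CPM. Of 53697 gene identifiers 53668 matched the GENCODE M21 annotation, all members among them. Alternatives were RLE, library size and upper-quartile scaling, DESeq2 1.42.0, limma 3.58.1 (voom, and log2(TPM + 1) or log2(TPM + 0.1)), robust edgeR, no filter, CPM of at least 1 in 5 libraries, an offset for effective length, a block by replicate number, a term for the numbers 1 to 3 against 4 to 5, and libraries left out. The fits were tested on simulated data. Some genes of the other lists are not reported here.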

Additional observations from a re-analysis of the deposited data

Results flagged for a closer look

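In groups of 5 libraries, 14 of 136 groups examined held a highest or lowest value whose gap to the nearest other value was more than 0.71 of the range of the group (Dixon's test). Chance gives about 1 in 20 for normally distributed values. That rate does not hold for genes with reads in 1 library only, which always pass, or for groups of equal values, which never can. No excess is therefore read from the count. Of the cell cycle genes, 6 were among them. Mcm2 in DKO 2 stood at 16.0 CPM above 9.82 to 11.6 in the other DKO libraries. Cenpf in DKO 1 stood at 1.75 CPM above 0.489 to 0.815, and Ccne1 in DKO 1 at 0.684 CPM above 0.0429 to 0.178. Ube2c in DKO 4 stood at 0.367 CPM above 0.0854 to 0.128. Ccnd1 in WT 4 stood at 98.7 CPM above 51.7 to 60.3 in the other WT libraries, and Myc in DKO 5 at 22 CPM below 29.8 to 32.7.

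Of the other genes, Kif23 in WT 1 lay at 0.144 CPM below 0.382 to 0.474. WT 3 stood out in Ccni at 114 CPM above 27.4 to 37.5, in Cdkn1c at 1.62 CPM above 0.226 to 0.535, and in Ei24 at 37.0 CPM above 9.15 to 13. WT 5 stood out in the hemoglobin genes Hba-a1 at 3.72 CPM above 0 to 0.435 and Hba-a2 at 4.29 CPM above 0.0424 to 0.435. Retnlg in DKO 1 was at 0.171 CPM and Cspg4 in WT 4 at 0.0823 CPM, with 0 in the other libraries of the group.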

How the results depend on the processing

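The count of 3 cell cycle genes called higher ran from 1 to 4 over the alternatives and that of genes called lower was 0 in each. The count was 1 with limma on log2(TPM + 0.1) and 1 with effective length as an offset, and 1 to 3 when single libraries were left out, with 1 without WT 2, WT 5, DKO 1, DKO 2 or DKO 3. With the replicate number as a block the count was 2 (E2f1 at adjusted p = 0.104), and 547 genes were called in place of 862. The numbers were not taken as pairs, since the correlations of same-numbered libraries were -0.096, 0.064, -0.235, 0.199 and 0.105 and only number 4 correlated best with its own number. With the term for numbers 1 to 3 against 4 to 5 the count was 4, with Ccne2 added. Of 662 values of single cell cycle genes, 634 kept their side of the threshold, 26 lost and 2 gained the call, and 0 called values reversed. Genes that were not called could change sign, and without WT 1 and WT 5 Pcna, Mcm3, Mcm4, Mcm5, Ccnd3 and Myc did (Ccnd3 from 0.33 to -0.06). The log2 ratio of the summed replication genes, 0.018, was -0.083 under upper-quartile factors, which moved the median of all genes to -0.11. The cause of these changes was not tested.

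Over all genes, 604 were called higher and 258 lower (70.1% higher), against 1075 and 518 with DESeq2. The share of higher calls was 53.7% by library size alone, 54.6% under upper-quartile factors, 54.9% and 55.5% with limma on TPM plus 1 and 0.1, and 59.8% with the term for numbers. Without WT 1 and WT 5, 449 genes were called, and without single libraries 279 to 1174 were higher and 119 to 444 lower. Depth limits the mitosis genes, of which all 12 together held 204 to 347 reads per library.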
